A study of Homo sapiens with 6 samples.

Results

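Regions that carried a SMAD2/3 peak in Hs578T cells both early and late after TGFβ3, and no listed peak in BT549 cells, are described here. They were chosen by the peak lists themselves. Peaks of all 4 lists that shared at least 1 bp were merged into 15870 regions, and a region was kept when it held a peak of both Hs578T lists and none of either BT549 list. This gave 246 regions, called members below, out of 2792 regions with any Hs578T peak and 350 with a peak at both Hs578T times. Membership, and every score and width of a member in the Hs578T lists, is therefore part of the choice and is given as a description without a test.

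Hs578T and BT549 are established human triple-negative breast cancer lines. Both were grown in serum with insulin, Hs578T in DMEM and BT549 in an RPMI medium, and stimulated with recombinant TGFβ3 for 1.5 h or 16 h. Each line and time has 1 chromatin immunoprecipitation (ChIP-seq) library made with an antibody that recognises SMAD2 and SMAD3, so there are no replicates and no value has a replicate error. Input DNA of untreated cells, with 1 sample for each line, was not analysed here, and no SMAD2/3 library of untreated cells was used. The Hs578T lists had 1373 and 1849 peaks at 1.5 h and 16 h, and the longer BT549 lists had 9225 and 8153. Read depth is unknown, and a region with no listed BT549 peak is not thereby shown to be unbound in BT549.

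TGFβ ligands act through a receptor kinase complex that phosphorylates SMAD2 and SMAD3. The phosphorylated proteins join SMAD4, enter the nucleus and bind DNA weakly on their own, mostly at short CAGAC boxes or GC-rich sites, beside other transcription factors that differ from cell type to cell type. SMAD6 and SMAD7 are inhibitory members of the family that damp the pathway. HOX genes encode homeodomain transcription factors that set position along the body axis. They lie in 4 clusters, HOXA to HOXD, whose activity differs between cells of different origin.

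Most members stood outside any group, since 136 had no other member within 100 kb, but the rest gathered in pairs and groups. The largest single group lay at the HOXA cluster, with 11 members, and the next upstream of ZNF703, with 9. In 15 places, 3 or more members followed each other with gaps under 100 kb, and these places held 80 of the 246 members, or 32.5% (27.0 to 38.6, 95% Wilson interval, here and below for counting error only). Of these 80 members, 33 lay in 4 groups at the HOXA, HOXB, HOXC and HOXD clusters. That is 13.4% (9.71 to 18.2) of all members, in 407 kb that was itself drawn from first to last member. The same 407 kb held 4 of the 104 regions of both Hs578T times with a BT549 peak. It held 29 of the 2235 regions of 1 Hs578T time without a BT549 peak and 4 of the 207 with one. Of regions without a Hs578T peak, it held 3 of 3468 listed at both BT549 times and 6 of 9610 listed at 1. The other 11 groups held 47 members. Gene names in this report come from general knowledge of where genes lie on hg19 and were not checked against an hg19 annotation, which was not used here. They name a place and not a target gene.

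Gene starts lie in or beside members at HOXA10, HOXA9, HOXD11 and NR2F1. The HOXA10 start belongs to the member on chromosome 7 from 27219472 to 27220309 (hg19), which ranked 1 in both Hs578T lists. The HOXA9 start belongs to the member from 27205102 to 27205864 of the same chromosome. The HOXD11 start belongs to chromosome 2 from 176971671 to 176972224. The NR2F1 start lies at the edge of the member on chromosome 5 from 92918497 to 92918853. Their places were picked after the values were seen. The members' own hg19 sequence was not used here, so the 250 bases before each gene start are shown in place of it, from RefSeq on GRCh38.p14, each read 5′ to 3′ on the gene's own strand (minus for HOXA10 and HOXA9, plus for HOXD11 and NR2F1). For HOXA10 and NR2F1, which have several starts in that table, the outermost was taken. Capitals mark the SMAD box CAGAC on either strand, and likewise the letters GGCGC as well as GGCCG of GC-rich SMAD sites.
HOXA10: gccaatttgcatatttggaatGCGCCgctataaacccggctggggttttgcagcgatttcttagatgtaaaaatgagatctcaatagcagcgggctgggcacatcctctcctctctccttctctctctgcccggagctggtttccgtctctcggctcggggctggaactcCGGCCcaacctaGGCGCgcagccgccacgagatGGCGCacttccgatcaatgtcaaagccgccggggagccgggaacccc
HOXA9: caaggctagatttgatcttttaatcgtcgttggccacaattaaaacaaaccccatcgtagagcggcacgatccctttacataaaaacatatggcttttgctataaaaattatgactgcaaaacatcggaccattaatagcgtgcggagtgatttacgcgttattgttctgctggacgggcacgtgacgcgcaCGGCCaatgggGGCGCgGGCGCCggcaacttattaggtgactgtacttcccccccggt
HOXD11: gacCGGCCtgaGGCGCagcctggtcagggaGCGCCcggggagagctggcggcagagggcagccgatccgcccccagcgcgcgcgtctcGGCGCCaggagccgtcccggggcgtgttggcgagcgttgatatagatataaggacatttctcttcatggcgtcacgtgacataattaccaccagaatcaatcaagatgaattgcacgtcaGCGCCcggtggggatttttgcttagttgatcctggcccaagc
NR2F1: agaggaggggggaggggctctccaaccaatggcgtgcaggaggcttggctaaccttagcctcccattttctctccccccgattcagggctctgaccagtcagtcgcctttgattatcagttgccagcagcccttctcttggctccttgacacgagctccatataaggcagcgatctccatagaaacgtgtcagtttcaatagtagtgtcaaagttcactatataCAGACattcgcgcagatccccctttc

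The 3 HOX windows held GC-rich matches and no CAGAC, while the NR2F1 window held a CAGAC and no GC-rich match. GGCGC matched 3 times before HOXA10, 3 times before HOXA9 and 5 times before HOXD11, and GGCCG matched 1 time before each of them. A match is counted per start position on either strand, so a palindrome such as GGCGCC counts for both of its strands. None of the 4 windows held the AP-1 letters TGANTCA. Among 35116 RefSeq promoter windows of the same length, 44.5% held GGCGC, 44.7% held GGCCG, 38.0% held CAGAC and 6.57% held TGANTCA. The letters CG occurred 19, 20 and 23 times before HOXA10, HOXA9 and HOXD11, and 8 times before NR2F1. Their median over the 35116 windows was 11. Whether CG content bears on the matches was not tested. The matches describe these letters in these windows and not a bound site.

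Members held the highest-scoring peak of both Hs578T lists and many of the next. Of the 10 highest-scoring peaks, 4 at 1.5 h and 7 at 16 h lay in a member, and of the 100 highest-scoring, 62 and 64 did. Over whole lists, 273 of 1373 peaks at 1.5 h (19.9%) and 261 of 1849 at 16 h (14.1%) lay in members. The whole lists include peaks of 1 time only, which the rule leaves out, so they are not a like reference. Of the 350 regions listed at both Hs578T times, 246 were members, or 70.3% (65.3 to 74.8). None of the shares of the 10 or 100 highest-scoring peaks exceeded that. Each peak has a score. It is assigned by the authors' peak caller and grows with depth as well as enrichment, so it is used here to order peaks within a list, and a 1.5 h and a 16 h score set side by side do not measure a change. Over the members the 1.5 h score ran from 50.04 to 783 with a median of 83.8 (quartiles 61.7 and 133), and the 16 h score from 51.2 to 1498 with a median of 135 (81.0 and 271). A score of 100 or more was reached at both times by 90 members and at 16 h only by 65. Another 9 reached it at 1.5 h only, and 82 at neither time. Strong sites and sites near the calling limit are thus both among the members.

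The same lists give a reference that shares their depth, namely the 104 regions listed at both Hs578T times that also held a BT549 peak. Their median scores were 90.5 at 1.5 h and 122 at 16 h. The 16 h score was the higher of the pair in 200 of 246 members, or 81.3% (76.0 to 85.7), and in 74 of the 104 regions with a BT549 peak, or 71.2% (61.8 to 79.0). Those intervals overlap. Scores of 100 or more at both times were found in 36.6% (30.8 to 42.8) of the members and 37.5% (28.8 to 47.1) of the other regions. Scores in Hs578T thus covered a like range whether or not BT549 had a peak. Taken by the 16 h score, regions listed at both Hs578T times had no BT549 peak in 67.5% (56.5 to 76.9) below 75, 76.5% (63.2 to 86.0) from 75 to 100, 71.3% (61.4 to 79.4) from 100 to 200 and 68.8% (60.3 to 76.1) from 200 up. Over all 350 regions the share was 70.3% (65.3 to 74.8). By the 1.5 h score the shares ran from 60.9% (46.5 to 73.6) at 200 and above to 72.5% (64.7 to 79.2) below 75. All of these intervals overlap.

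**Figure D1:**
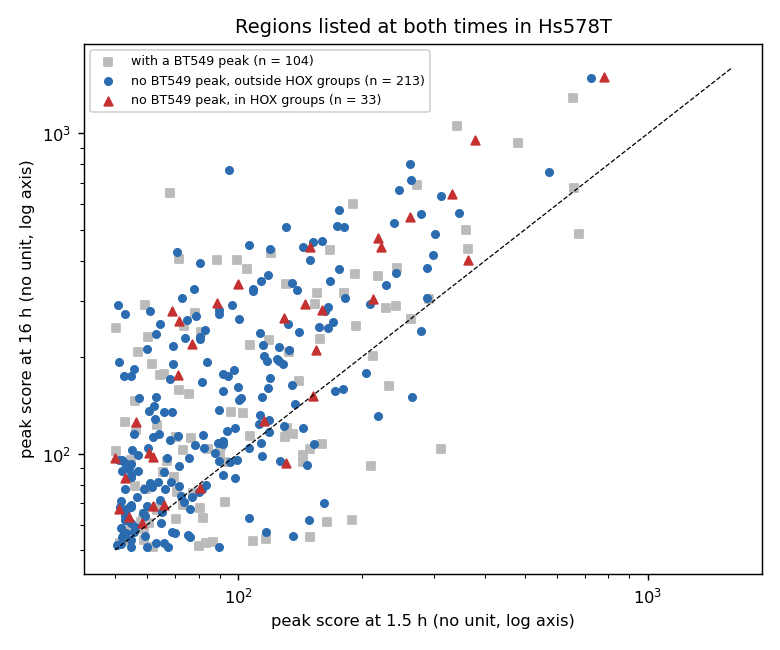
Authors' peak score at 1.5 h (x axis) against 16 h (y axis), both without unit on log axes, for the 350 regions listed at both Hs578T times, each point 1 region and the dashed line equal scores. The 33 members in HOX groups, the 213 other members and the 104 regions with a BT549 peak overlap, and 200 of 246 members lie above the line.

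Peaks of a member at the 2 times lie close in part by the rule, which merges only peaks that share a base. The centres of the 1.5 h and 16 h peaks of a member lay a median of 45.5 bp apart (at most 298.5 bp), and in 150 members, or 61.0% (54.8 to 66.9), the peaks covered at least 50% of each other. The 16 h peak was the wider in 207 of 246 members, with a median width of 358 bp against 219 bp at 1.5 h. The regions with a BT549 peak showed this in 81 of 104. In 34 members at least 1 list had more than 1 peak inside the merged region, and their widths were then summed.

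The 5 members with the largest ratio of the 16 h to the 1.5 h width scored under 75 at 1.5 h. On chromosome 7 the member from 70033907 to 70034866 was 201 bp wide at 1.5 h and 960 bp at 16 h, with scores of 72.9 and 306. A member on chromosome 16 from 47920583 to 47921267 went from 154 bp to 685 bp, with scores of 71.0 and 426. The member on chromosome 7 from 33801042 to 33801671 had 148 bp and 630 bp and scored 50.9 and 290.2. All 3 had 1.5 h scores under 75 and 16 h scores of 290.2 or more. On chromosome 6, 1850963 to 1851387 had 104 bp and 425 bp, with scores of 59.8 and 212. On chromosome 18, 72573054 to 72573597 had 137 bp and 541 bp, with scores of 74.8 and 261.

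At the other end, the 5 smallest ratios ran from 0.442 to 0.591. On chromosome 21 the member from 23029997 to 23030134 measured 138 bp and then 61 bp, with scores of 92.0 and 107. For chromosome 12 from 115352270 to 115352518 the widths were 234 bp and 106 bp and the scores 106 and 63.0. A member of chromosome 22 from 16931874 to 16931996 had 123 bp and 68 bp, with 65.8 and 135. Of these 3, all were under 250 bp as merged regions. Chromosome 2 from 38323216 to 38323762 had 522 bp and 301 bp, with 101 and 149, and chromosome 12 from 38180934 to 38181061 had 127 bp and 75 bp, with 92.0 and 85.5.

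The HOXA group was the largest, with 11 members in 77.5 kb of chromosome 7. Each of the 11 had the higher score at 16 h, as did 81.3% of all members. The region over the HOXA10 start, from 27219472 to 27220309, scored 783 at 1.5 h and 1498 at 16 h. Next to it, 27209635 to 27210302 scored 333 and 647, with rank 15 in both lists. The region from 27227214 to 27227799, beyond HOXA11, scored 364 and 403. These 3 lie toward the HOXA9 to HOXA13 end of the cluster, where genes of the posterior body are found, and stood above all other HOXA members at 16 h.

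Along the rest of the HOXA cluster the scores were lower. The region over the HOXA9 start, 27205102 to 27205864, scored 100.1 and 338. Between HOXA7 and HOXA9, 27197669 to 27198412 scored 77.1 and 219.6, and 27200821 to 27201312 scored 71.5 and 260.3. Beside HOXA5, 27183386 to 27184061 scored 88.7 and 296. These 4 had 1.5 h scores from 71.5 to 100.1. Beyond a gap of 24 bp from the last of them, 27184086 to 27184310 scored 54.0 and 63.2. At HOXA3, 27152839 to 27153335 scored 159.9 and 282, and 27154771 to 27155186 scored 68.7 and 279. The smallest of the group, 27150322 to 27150543, scored 62.1 and 68.7. BT549 peaks were not absent from the cluster. The span held 2 BT549 peaks at 1.5 h and 5 at 16 h, and the nearest lay 903 bp to 14.4 kb from each member.

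The HOXD group differed from HOXA in that its span held no BT549 peak at either time. Its 7 members lay in 71.5 kb of chromosome 2, and the nearest BT549 peak was 407667 to 478359 bp away. The leading region, from 176968505 to 176969362 between HOXD12 and HOXD11, scored 379 at 1.5 h and 953 at 16 h, with ranks 9 and 5. The region over the HOXD11 start, 176971671 to 176972224, scored 213 and 303. Its neighbour, 176971335 to 176971630, scored 62.0 and 97.6. Of these neighbours, the leading region stood well above the others in both lists.

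Farther along HOXD, 176995233 to 176995802 at HOXD8 scored 262 and 549.9. Near HOXD3, 177022261 to 177022887 scored 223 and 442, and 177039374 to 177040054 scored 149.5 and 442. At HOXD9, 176988202 to 176988810 had the lowest scores of the group, 52.8 and 83.7. All 7 members scored higher at 16 h than at 1.5 h, as did 81.3% of all members. Besides the members, the span held 2 regions listed at 1 Hs578T time and nothing else.

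In the HOXB group, 8 members lay in 154 kb of chromosome 17, and 5 of the 8 scored higher at 16 h. The leading region, 46673930 to 46674578 at HOXB6, scored 219 and 471. Upstream of HOXB2, 46624292 to 46624786 scored 146 and 293. Beyond HOXB9, 46723893 to 46724381 scored 129 and 265.5. At the HOXB9 start, 46703766 to 46704188 scored 151.9 and 151.6. Those 4 exceeded 100 at both times.

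The other 4 HOXB members were weaker in at least 1 list. From 46663744 to 46664026 the scores were 131 and 93.3, and at HOXB4, from 46654962 to 46655276, they were 80.5 and 78.2. From 46570016 to 46570326 they were 56.3 and 125, and from 46696782 to 46696970 they were 51.3 and 67.2. The HOXB span also held 14 regions listed at 1 Hs578T time without a BT549 peak, more than its members. It held 5 BT549 peaks at 1.5 h and 2 at 16 h.

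The HOXC group had the lowest scores of the 4 HOX groups, with medians of 65.8 at 1.5 h and 101 at 16 h over 7 members in 104 kb of chromosome 12. From 54445811 to 54446316 the scores were 154.8 and 211. From 54422610 to 54422977 they were 116 and 126, and from 54427221 to 54427623 they were 71.1 and 177. These 3, beside HOXC4, HOXC5 and HOXC6, led the group. From 54371915 to 54372136 the scores were 60.6 and 101, from 54399136 to 54399440 they were 50.04 and 97.2, and from 54384222 to 54384392, at HOXC10, they were 58.1 and 60.6. The last, 54475499 to 54475729, had 65.8 and 68.9. BT549 listed 5 peaks at 1.5 h and 6 at 16 h inside the span, and 1 region of both Hs578T times and 3 of 1 Hs578T time there also held a BT549 peak.

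**Figure D2:**
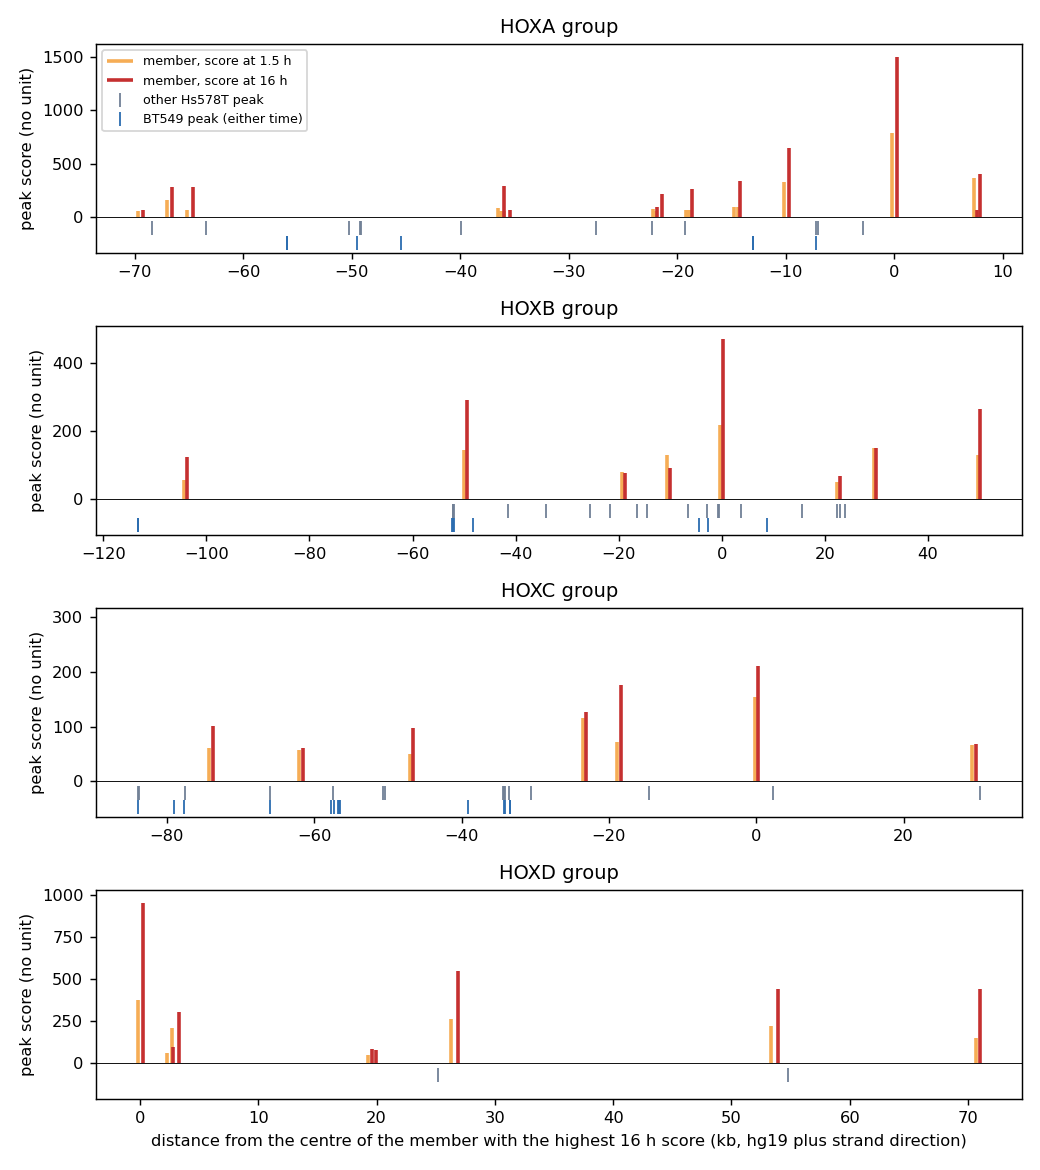
Peaks in and within 10 kb of the HOXA, HOXB, HOXC and HOXD groups, by distance in kb from the centre of the member with the highest 16 h score (x axis), with the authors' score of each member peak as a line at 1.5 h and 16 h, drawn side by side (y axis, no unit), and other peaks as ticks below 0. The HOXD panel has no BT549 tick, while the other panels have BT549 ticks between members.

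Outside the HOX clusters, the group with the most members lay upstream of and beside ZNF703, a gene for a zinc-finger repressor that is amplified in some luminal breast cancers. Its 9 members spread over 401 kb of chromosome 8, and all 9 scored higher at 16 h, as did 81.3% of all members. The leading region, 37404377 to 37405188, scored 313 and 639 and ranked 16 in both lists. Beside ZNF703 itself, 37560857 to 37561316 scored 239 and 524. At the far end, 37160014 to 37160904 scored 144 and 440.4. These 3 had the highest 16 h scores of the group.

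The remaining ZNF703 members scored 77.8 to 209.6 at 1.5 h and 193 to 347 at 16 h. From 37336765 to 37337352 the scores were 209.6 and 294, and from 37186968 to 37187546 they were 126 and 195. From 37217056 to 37217555 they were 114 and 347, and beyond a gap of 405 bp, from 37217961 to 37218357, they were 80.7 and 232. From 37310217 to 37310710 they were 84.0 and 193, and from 37494967 to 37495502 they were 77.8 and 326. Inside the span, 16 further regions were listed at 1 Hs578T time without a BT549 peak, and 1 region had a BT549 peak without a Hs578T peak. A related gene, ZNF503, also had a group, with 3 members in 5.12 kb of chromosome 10. There 77164565 to 77165470 scored 572 and 757, with ranks 6 and 9, 77163388 to 77163858 scored 288 and 379.8, and 77168139 to 77168508 scored 162 and 69.9. A BT549 peak lay 756 bp from the nearest of these 3.

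PRDM16, which encodes a zinc-finger transcription regulator that helps set brown fat identity, held 6 members in 172 kb of chromosome 1. The region from 3309320 to 3310793 ranked 2 in both lists, with scores of 724 and 1485, and at 1474 bp was the widest of all members. It had 3 peaks at 1.5 h and 2 at 16 h. To its right, 3320159 to 3320813 scored 89.7 and 274, and 3336070 to 3336764 scored 135 and 342. To its left lay weaker ones, with 116.7 and 56.8 from 3164374 to 3164618, 68.9 and 57.0 from 3165092 to 3165420, and 72.7 and 73.7 from 3240049 to 3240268. The 3 members on the left scored under 75 at 16 h, and 2 of the 6 members scored higher at 1.5 h. The span also held 2 BT549 peaks at 1.5 h and 3 at 16 h. Among them was a region of both BT549 times without a Hs578T peak, with BT549 scores of 671 and 843.

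On the X chromosome, 5 members lay at or beside TSC22D3, which encodes the glucocorticoid-induced leucine zipper protein, in 71.5 kb. From 106979863 to 106980705 the scores were 345 and 566. From 106919868 to 106920616 they were 299 and 416, and from 106972704 to 106973296 they were 242 and 367. From 106990731 to 106991406 they were 182 and 307, and from 106975104 to 106975545 they were 119 and 172. All 5 exceeded 100 at both times, which no other group of 5 or more did. BCOR, the gene of a transcriptional corepressor, held 3 further X members. They scored 139 and 324 from 40028894 to 40029339, 118 and 360.4 from 40030359 to 40030808, and 66.2 and 77.6 from 40011049 to 40011319.

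NR2F1 encodes an orphan nuclear receptor, and its locus on chromosome 5 held 5 members in 94.7 kb. The region beside the NR2F1 start, 92918497 to 92918853, scored 81.7 and 167. From 93012966 to 93013230 the scores were 91.5 and 177, and from 92941608 to 92942037 they were 60.6 and 136. From 92938034 to 92938337 they were 60.3 and 104, and from 92934145 to 92934424 they were 63.0 and 52.7. No member here reached 100 at 1.5 h, and 4 of the 5 did so at 16 h.

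The members upstream of SMAD6, the inhibitory SMAD, were among the weakest. On chromosome 15, 66993580 to 66993955 scored 67.0 at 1.5 h and 96.9 at 16 h, 66993073 to 66993431 scored 65.8 and 87.5, and 66972077 to 66972292 scored 50.5 and 51.9. The last had the lowest best score of all 246 members. Beside them, 66994310 to 66994850 is not a member, since both BT549 lists have a peak there (scores 356 and 229), and it scored 658 and 675 in Hs578T, with ranks 4 and 12. That BT549 peak at 1.5 h is the nearest to the first and second members, at 394 bp and 918 bp.

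Another pair of groups on chromosome 7 lay far from BT549 peaks. In the interval between BBS9 and BMPER, the latter encoding a secreted regulator of bone morphogenetic proteins, 33762220 to 33762746 scored 279 and 242. There 33768562 to 33769269 scored 74.2 and 229.8, 33773599 to 33774118 scored 99.8 and 161, and 33801042 to 33801671 scored 50.9 and 290.2. In AUTS2, a gene linked to neurodevelopment, 69820722 to 69821125 scored 55.6 and 184, 69837784 to 69838251 scored 63.0 and 237, and 69897533 to 69897992 scored 141 and 240.1. Neither span held a BT549 peak, and the nearest lay 136 kb or more from every member of both groups. Members to the right of the AUTS2 group but outside it had higher 16 h scores. There 70033907 to 70034866 scored 72.9 and 306, and 70095768 to 70096544 scored 106 and 447. To its left, 69245308 to 69245625 scored 68.4 and 81.5.

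The last groups were on chromosome 1. In PTPN14, which encodes a phosphatase of the Hippo pathway, 214704782 to 214705265 scored 174 and 514. Also there, 214687457 to 214687809 scored 57.3 and 149, and 214687980 to 214688223 scored 52.8 and 62.0, with no BT549 peak in the span. Near SAMD11 and NOC2L, 871055 to 871657 scored 302 and 487, 851977 to 852363 scored 147 and 92.0, and 879682 to 880036 scored 113 and 124. The SAMD11 span was the odd one among the 15, since 6 regions of both Hs578T times in it also held BT549 peaks and BT549 listed 7 peaks at 1.5 h and 6 at 16 h.

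**Figure D3:**
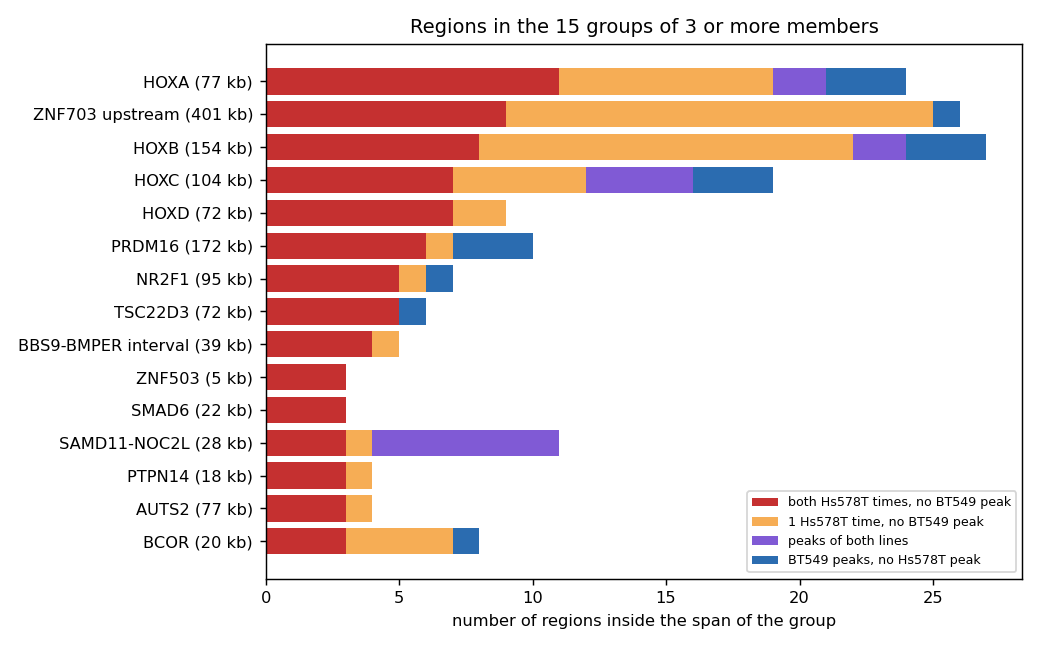
Number of merged regions (x axis) inside the span of each of the 15 groups of 3 or more members (y axis, with the span in kb), split by which lists held them. Members and regions of 1 Hs578T time fill most bars, and the SAMD11-NOC2L bar is mostly peaks of both lines.

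The 15 spans cover 1357 kb and held 80 members, 55 regions listed at 1 Hs578T time without a BT549 peak while BT549 peaks without a Hs578T peak made 4 regions of both times and 12 of 1 time. The lists in them had 119 and 139 Hs578T peaks and 25 and 22 BT549 peaks, a balance that the choice of the spans by members fixes in part. The 4 HOX spans accounted for 55 and 62 of the Hs578T peaks and 12 and 13 of the BT549 peaks. Of the 80 members, 71 scored higher at 16 h, as did 30 of the 33 in HOX groups and 200 of all 246. The share was 90.9% (76.4 to 96.9) in HOX groups and 79.8% (73.9 to 84.7) among all members outside them. These intervals overlap.

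Of the 20 members that ranked best in the worse of their lists, 16 lay in these groups, 7 of them in HOX groups. The other 4 lay outside every group of 3 or more. On chromosome 7, 146351013 to 146351664 in CNTNAP2, a neuronal adhesion gene, scored 279 and 560.2 and had another member 1212 bp away. On chromosome 5, 163615589 to 163616144 scored 264 and 714, and 159139581 to 159140113 scored 263 and 805.3. On chromosome 3, 167809543 to 167810159 scored 246 and 667. The nearest BT549 peak lay 43767 to 322526 bp from these 4.

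Members at other developmental regulators were picked out after their values were seen. At FOXC1, a forkhead factor of mesenchyme and of basal-like breast cancer, chromosome 6 from 1613850 to 1614419 scored 149.7 and 401. In NR2F2, the relative of NR2F1, chromosome 15 from 96879994 to 96880284 scored 54.97 and 103. In ZEB2, a repressor of epithelial genes during epithelial-mesenchymal transition, chromosome 2 from 145218869 to 145219096 scored 54.7 and 68.9. The FOXC1 member was well above the limit in both lists, while the ZEB2 member was near it in both. NFIA, a nuclear factor I gene, held a pair on chromosome 1, with 149 and 62.0 from 61542551 to 61543073 and 78.6 and 106 from 61918684 to 61919112.

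Nearness to other members was compared with that of other regions, using the same 246 members as targets. Another member lay within 100 kb of 110 members, or 44.7% (38.6 to 51.0). Regions listed at both Hs578T times with a BT549 peak had a member that near in 21.2% (14.4 to 30.0), and regions of 1 Hs578T time without a BT549 peak in 10.3% (9.14 to 11.7). Regions listed at both BT549 times without a Hs578T peak had one in 1.85% (1.45 to 2.35). Members thus most often had another member nearby, other Hs578T regions less often and BT549 regions least. At 100 kb the intervals of these 4 classes do not overlap. Regions of 1 Hs578T time with a BT549 peak had a member that near in 8.21% (5.19 to 12.8). Their interval overlaps that of the regions of 1 Hs578T time without a BT549 peak. Regions of 1 BT549 time without a Hs578T peak had one in 1.57% (1.34 to 1.84), and this interval overlaps that of both BT549 times. How near the regions of each other class lie to their own class was not computed. The shares therefore do not show whether members are more grouped than the other classes are. No test was made, because neighbouring regions are not independent and each list is 1 library. Within 10 kb the shares of the 4 classes named first were 27.2% (22.1 to 33.1), 14.4% (8.94 to 22.4), 5.59% (4.71 to 6.62) and 0.260% (0.137 to 0.492) in the same order. There the intervals of the leading pair of classes overlap.

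**Figure D4:**
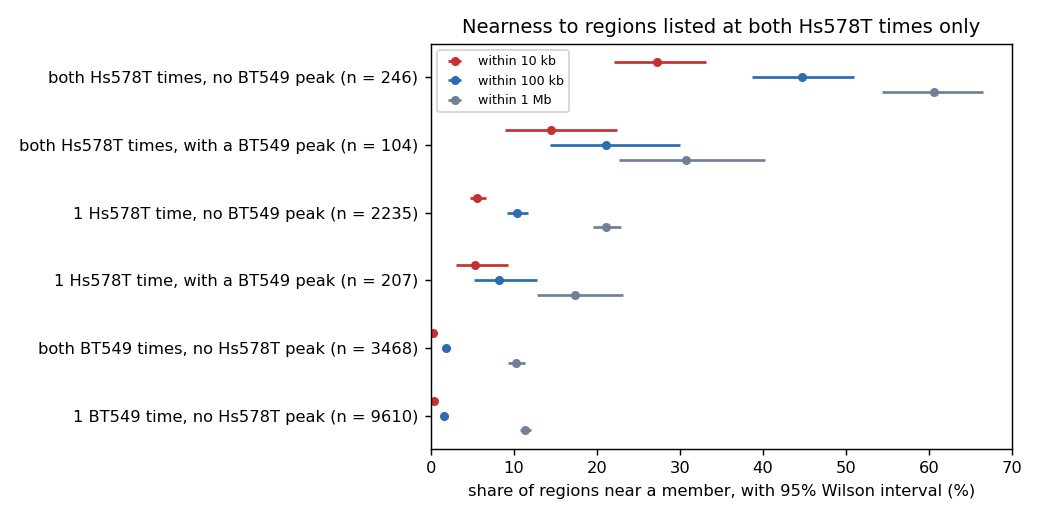
Share of regions (x axis, %, with 95% Wilson intervals for counting error) that have a member other than themselves within 10 kb, 100 kb or 1 Mb, for 6 classes of regions (y axis). Members stand highest at each distance, at 27.2%, 44.7% and 60.6%, and regions without a Hs578T peak lowest.

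The rule bars overlap with a BT549 peak but not nearness to one. A BT549 peak lay within 1 kb of 10 members, or 4.07% (2.22 to 7.32), within 10 kb of 53, or 21.5% (16.9 to 27.1), and within 100 kb of 147, or 59.8% (53.5 to 65.7). For the 2235 regions of 1 Hs578T time without a BT549 peak these shares were 3.36% (2.69 to 4.19), 12.8% (11.5 to 14.3) and 53.2% (51.2 to 55.3). The median distance was 63.8 kb for members and 90.2 kb for the others. At 10 kb the intervals are apart, with the members' share the higher, and at 1 kb and 100 kb they overlap. The members' share within 10 kb moved to 8.87% with equal list lengths, 12.2% with BT549 scores of 100 or more, 14.3% with such scores in all lists and 36.2% with 50% overlap, and the other class was not recomputed under these. These regions differ in width too, with medians of 403 bp and 141 bp, and whether width plays a part was not tested.

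**Figure D5:**
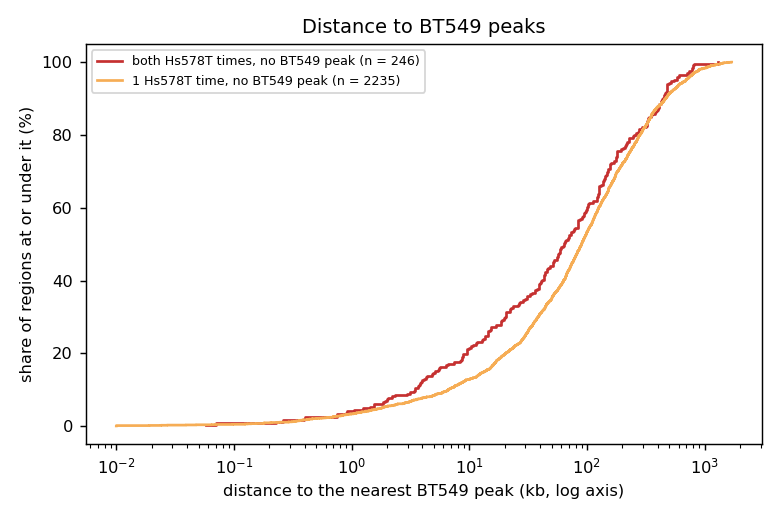
Cumulative share of regions (y axis, %) by distance to the nearest BT549 peak (x axis, kb, log axis, distances under 0.01 kb drawn there), for members and for regions of 1 Hs578T time without a BT549 peak. The member curve runs above the other near 10 kb, at 21.5% against 12.8%.

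Members at the edge of the rule lay next to BT549 peaks. On chromosome 1, 879682 to 880036 had a BT549 peak 58 bp away, and on chromosome 3, 17784013 to 17784216 had one 71 bp away, with Hs578T scores of 56.8 and 73.1. On chromosome 1, 85666511 to 85666983 was 229 bp away with scores of 205 and 179, and on chromosome 17, 7739553 to 7739880 was 260 bp away with 52.8 and 66.6. Just outside the rule were regions that a BT549 peak touched by few bases. On chromosome 4, 26320986 to 26321403 overlapped a BT549 peak by 18 bp, with Hs578T scores of 61.8 and 51.2, and on chromosome 1, 875290 to 875672 did so by 35 bp, with 63.5 and 66.8. On chromosome 10, 77161252 to 77161876, beside the ZNF503 group, overlapped by 39 bp and scored 189 and 62.0. Chromosome 8 from 3468675 to 3468796 and chromosome 9 from 34937011 to 34937270 overlapped by 63 bp and 65 bp.

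The members nearest the score limit, by the higher of their scores, were the SMAD6 region named above and 4 others. The member on chromosome X, 148227634 to 148227787, scored 51.7 and 52.0. At 47974071 to 47974213 of chromosome 1 the scores were 54.6 and 51.2. At 155981590 to 155981742 of chromosome 6 they were 54.8 and 53.7, and at 94313051 to 94313229 of chromosome 1 they were 51.9 and 54.97. None of the lists has a score under 50.01, so lower values were not available to compare.

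By chromosome, members were spread over the autosomes and X, with 33 on chromosome 7, or 13.4% (9.71 to 18.2). Of these, 11 were neighbours in the HOXA group. On chromosome 7 the shares were 5.77% (2.67 to 12.0) of the regions of both Hs578T times with a BT549 peak, 6.04% (5.13 to 7.11) of those of 1 Hs578T time without one, and 4.93% (4.26 to 5.70) of those of both BT549 times without a Hs578T peak. Chromosome 3 held 4 members, or 1.63% (0.634 to 4.11), an interval below those of the classes just named. Their shares there were 9.62% (5.31 to 16.8), 6.67% (5.71 to 7.78) and 6.60% (5.82 to 7.48) in the same order. The X chromosome held 15 members, or 6.10% (3.73 to 9.82). That share was near the 6.89% (5.91 to 8.02) of regions of 1 Hs578T time without a BT549 peak. It was above the 2.08% (1.65 to 2.61) of regions listed at both BT549 times alone. Regions of both Hs578T times with a BT549 peak had 0.962% (0.170 to 5.25) there, and that interval overlaps the one of the members. The remaining chromosomes are not compared here.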

How the data were processed

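SMAD2/3 ChIP-seq peak lists of 4 libraries were used, 1 per cell line and time, called per sample. Bowtie 1.1.0, Picard, MACS 1.4.2 and the build hg19 are named per the submitters' processing notes. How they were set and whether input was subtracted is not stated there. In the deposited files each peak has a score, assigned by the authors' peak caller, of 50.01 or more.

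Starts were counted from 1. Peaks sharing 1 bp or more were merged and classed by the lists they held; with several peaks of a list, the highest score was taken and widths were summed. Groups are 3 or more members with gaps under 100 kb. Intervals are 95% Wilson intervals. No test was made. The merging code was tested on simulated lists. Depth is unknown.

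Named are the 20 members with the best worst rank, the 5 with the lowest best score, the 5 nearest a BT549 peak, the 5 non-members with the smallest BT549 overlap, the 5 with the largest and the 5 with the smallest width ratio, and all groups in full. Members, lists and rules were chosen with earlier results of these data known. Gene lists, gene-start distances and motifs in the members need an hg19 annotation or sequence and were left out; of the windows before gene starts, all 35116 of full length were searched. Python 3.11.15, pandas 2.3.3, scipy 1.17.1 and matplotlib 3.10.9 were used.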

Additional observations from a re-analysis of the deposited data

How the results depend on the processing

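Each of 5 results was recomputed under 9 alternatives: scores of 100 or more in all lists, in the Hs578T lists or in the BT549 lists, equal list lengths, 50% overlap of both peaks, merging within 500 bp, no peaks under 150 bp, autosomes with X, and no gap edges. Of 44 values, 32 stayed within the main 95% interval, or within 1.5 times the main count. The number of members was 105 with scores of 100 or more in all lists and 90 with such scores in the Hs578T lists. The share of regions of both Hs578T times without a BT549 peak was 80.8% with such scores in all lists, 81.8% with them in the BT549 lists, 88.0% with equal list lengths and 79.0% with 50% overlap. The share with a BT549 peak within 10 kb was 14.3%, 12.2%, 8.87% and 36.2% under the same alternatives. The share of members whose peaks cover 50% of each other was 80.0% with scores of 100 or more in all lists and 77.8% with them in Hs578T. Shorter BT549 lists and a stricter overlap raise the share without a BT549 peak by construction. The 50% overlap was also asked of the 2 Hs578T peaks, which left 177 members. The share within 10 kb depends on these settings too. Shorter BT549 lists leave fewer peaks to lie near. With 50% overlap, a member that a BT549 peak overlaps to a lesser extent is kept and counts as within 10 kb. The cause of the other shifts was not tested. The share with another member within 100 kb ranged from 39.0% to 45.3%. With 50% overlap, the peaks' mutual cover is fixed by the setting and was left out. Distances to gene starts and motif shares of members were not run, for want of an hg19 annotation and sequence. With 1 library per group, no library could be left out.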

Other observations

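Some members are neighbours rather than separate sites. In 13 adjacent pairs, members lay under 1 kb apart, from 24 bp to 782 bp, so 26 members have another within 1 kb. Merging peaks within 500 bp before applying the rule gave 242 regions, and how many of them hold an original member was not counted. On chromosome 14, 68658450 to 68658902 scored 101 and 263 and its neighbour 68658202 to 68658389 scored 52.6 and 56.4. On chromosome 9, 82062547 to 82063230 scored 163 and 279 and 82061389 to 82061793 scored 52.7 and 175. In both pairs 1 member was the stronger in both lists.

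The member farthest from BT549 peaks spans 78644463 to 78644830 of chromosome 2 and scored 89.9 and 282. It was the only 1 of the 246 with no BT549 peak within 1 Mb.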
